A study of Mus musculus with 8 samples.

Results

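Ctla2a and Ctla2b, 6 cathepsins and 2 cystatins were described in mature CD8 single-positive (CD8SP) thymocytes of mice with Ndrg3 deleted in T cells and of their controls. The 10 genes, of 47937 in the counts table, were Ctla2a, Ctla2b, Ctsl, Ctsb, Ctsd, Ctss, Ctsw, Ctsc, Cst3 and Cst7. They were taken by name from that table. The list was chosen by results of this same comparison, namely the higher counts of Ctla2a in the knockout, with its relatives and targets added, so the differences between the groups are given for these genes as a description, with no test.

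RNA was sequenced from TCRb+ MHC-I high CD8SP cells sorted from the thymus of mice aged 6 to 7 weeks, with 4 libraries from Ndrg3 ctrl and 4 from Ndrg3 TKO. The Ndrg3 ctrl mice were Ndrg3 +/fl;Lck-cre+ and the Ndrg3 TKO mice were Ndrg3 fl/fl;Lck-cre+. Both groups thus carried the Cre transgene and at least 1 floxed allele, and no library came from mice without Cre. Lck-cre acts early in T cell development and leaves Ndrg3 intact in other thymic cells. Total counts ranged from 21126698 to 32668081 per library, with Ndrg3 ctrl replicate 2 the lowest. Levels below are CPM, that is, counts scaled to library totals of 1e6 reads after adjustment by the trimmed mean of M values (TMM). Ndrg3 counts, taken over all its exons with the floxed part included, were at 79.3 to 81.5 CPM in Ndrg3 ctrl and 48.4 to 55.3 CPM in Ndrg3 TKO, and the groups did not overlap. The 18 marker genes of CD8SP cells were all measured, summing to 11740 to 13566 CPM in Ndrg3 ctrl and 11804 to 12939 CPM in Ndrg3 TKO. Counts of Y-linked genes were present in Ndrg3 ctrl replicate 2 and in Ndrg3 TKO replicates 2 and 3, so the sexes were mixed within both groups.

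Cathepsins are the proteases of endosomes and lysosomes. They are made as inactive proenzymes whose pro-region folds over the active site, and the Ctla2 proteins resemble the pro-region of cathepsin L without a protease attached to it. Cystatins form another family of cysteine protease inhibitors. In lymphocytes, cathepsin C activates the serine proteases of cytotoxic granules, cystatin F (Cst7) restrains cathepsins inside the cell, and cathepsin W is made mainly by CD8 T cells and natural killer cells.

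Ctla2a and Ctla2b are neighbouring copies on the minus strand of chromosome 13, and the upstream stretches of both are shown because the copies were so unequal in level and in their difference between the groups. Each line gives the 250 bases before the start of the gene, 5′ to 3′ on the gene's own strand, from RefSeq on GRCm38.p6, at chr13:60936626-60936875 for Ctla2a and chr13:60897448-60897697 for Ctla2b. The start farthest upstream was used for each gene. Capitals mark TGACTCA, the consensus site of AP-1 factors.
Ctla2a: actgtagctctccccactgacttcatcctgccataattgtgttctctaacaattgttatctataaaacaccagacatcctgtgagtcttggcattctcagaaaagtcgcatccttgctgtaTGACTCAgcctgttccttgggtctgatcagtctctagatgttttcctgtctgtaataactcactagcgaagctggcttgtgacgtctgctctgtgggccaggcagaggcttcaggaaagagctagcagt
Ctla2b: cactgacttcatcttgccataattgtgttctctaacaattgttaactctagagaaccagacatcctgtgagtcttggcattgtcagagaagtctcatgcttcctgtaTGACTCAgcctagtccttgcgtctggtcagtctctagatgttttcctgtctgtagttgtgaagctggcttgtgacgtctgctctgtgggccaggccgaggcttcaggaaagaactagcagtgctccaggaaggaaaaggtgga
Aligned with gaps, 208 of 228 paired bases were identical (91.2%). TGACTCA stood 129 bases before the start of Ctla2a and 143 bases before that of Ctla2b. Searched on both strands, it was held by 4.43% of 27025 upstream stretches of the same length. Of the 10 genes, 8 had an upstream stretch in the RefSeq table, and Ctla2a and Ctla2b were the 2 that held the AP-1 letters. CACGTG, the core of the element bound by the lysosomal regulator TFEB, was held by Ctsl and Ctsd among those 8. It was held by 6.04% of all stretches and by 20.8% of those of 53 lysosome genes other than cathepsins. The T-box letters GGTGTGA were held by Ctsc alone among the 8 and by 3.31% of all stretches. The GATA letters AGATAA were held by Ctla2a alone among the 8 and by 10.2% of all stretches. These matches are descriptions of the letters and not evidence of binding, and no motif match overlapped another in the stretches shown.

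Ctla2a was about 4-fold higher in Ndrg3 TKO. Its normalised level was 1.64, 1.62, 1.69 and 1.39 CPM in Ndrg3 ctrl replicates 1 to 4. In Ndrg3 TKO replicates 1 to 4 it was 5.37, 6.81, 7.21 and 7.15 CPM. Every Ndrg3 TKO library lay above every Ndrg3 ctrl library, with replicate 1 the lowest of the knockout libraries. The means were 1.59 ± 0.135 CPM (SD, n = 4) and 6.64 ± 0.864 CPM (SD, n = 4), a ratio of 4.18, and the fitted log2 fold change was 2.06 with a standard error of 0.152. The counts behind these levels were 33 to 50 per library in Ndrg3 ctrl and 162 to 233 in Ndrg3 TKO. The spread between the Ndrg3 ctrl libraries, 8.48% of the mean, was below the 15.3% that counting alone gives at these depths.

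**Figure D1:**
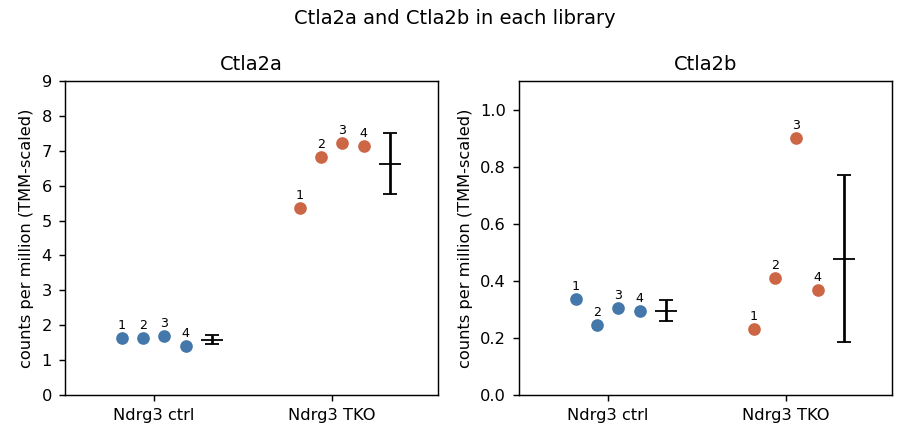
Ctla2a (left) and Ctla2b (right) in TMM-scaled CPM, by group. Each point is a library with its replicate number, and the bar is the mean with 1 SD. Ctla2a lies between 1.39 and 1.69 CPM in Ndrg3 ctrl and between 5.37 and 7.21 CPM in Ndrg3 TKO, while the groups overlap for Ctla2b.

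Ctla2b, the neighbouring copy, was near the limit of detection. It had 10, 5, 9 and 8 counts in Ndrg3 ctrl replicates 1 to 4, or 0.335, 0.246, 0.305 and 0.293 CPM. In Ndrg3 TKO it had 7, 13, 27 and 12 counts, or 0.232, 0.408, 0.902 and 0.368 CPM. The groups overlapped, since Ndrg3 TKO replicate 1 was the lowest library of all and replicate 3 stood highest. Ctla2b did not pass the filter on low counts. In a fit without that filter its log2 fold change was 0.67 with a standard error of 0.423. This value rests on Ndrg3 TKO replicate 3: with that library left out, in a fit whose filter Ctla2b passed, it was 0.18 with a standard error of 0.392.

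The share of Ctla2b in the counts of the pair was lower in Ndrg3 TKO, because Ctla2a counts rose by a larger factor than Ctla2b counts. It restates the counts given above and is no independent difference. Ctla2b gave between 13.2% and 17.4% of the counts of the pair in the Ndrg3 ctrl libraries and between 4.14% and 11.1% in the Ndrg3 TKO libraries. Over all Ndrg3 ctrl libraries the share was 15.8% of 170 Ctla2a and 32 Ctla2b counts (95% exact Clopper-Pearson interval 11.1% to 21.6%). Over all Ndrg3 TKO libraries it was 6.65% of 828 Ctla2a and 59 Ctla2b counts (5.1% to 8.5%). These intervals cover counting error only. The assignment of reads between the copies is uncertain: 268 of the distinct 50-base stretches were found in transcripts of both genes, 11.4% of those of Ctla2a and 14.8% of those of Ctla2b. Of 100-base stretches, 1.11% of those of Ctla2a and 1.47% of those of Ctla2b were shared. The setting used for reads with several matches is not given in the sources used here.

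The 2 copies lie 36.7 kb apart (Ctla2a, ENSMUSG00000044258, at chr13:60934155-60936625, and Ctla2b, ENSMUSG00000074874, at chr13:60895350-60897447, GRCm38), within a cluster of cathepsin and trophoblast genes used mainly in the placenta. Of 25 other genes that start within 1 Mb of either copy, 22 were listed at 0 in all 8 libraries. These include the placental cathepsins Ctsj, Ctsq, Ctsr, Cts6, Cts8, Cts7, Ctsm and Cts3, and the trophoblast genes Tpbpa and Tpbpb that flank the Ctla2 copies. The nearest neighbour that was expressed on the lower-coordinate side, 4930486L24Rik, was at 1.12 to 1.42 CPM in Ndrg3 ctrl and 1.1 to 1.81 CPM in Ndrg3 TKO (log2 fold change 0.22, SE 0.215, edgeR adjusted p = 0.757). On the other side Gm6436 was at 0.838 to 1.67 CPM in Ndrg3 ctrl and 0.614 to 1.48 CPM in Ndrg3 TKO (log2 fold change -0.14, SE 0.291, edgeR adjusted p = 0.904). Dapk1, a death-associated kinase, was at 7.64 to 10.7 CPM in Ndrg3 ctrl and 7.68 to 8.85 CPM in Ndrg3 TKO (log2 fold change -0.11, SE 0.115, edgeR adjusted p = 0.784). In the edgeR test 0 of these 3 tested neighbours passed the threshold, 0 had an unadjusted p under 0.05, and DESeq2 called 0. The nearest genes on chromosome 13 that did pass were Hivep1, 18.9 Mb from Ctla2a (log2 fold change 0.40, edgeR adjusted p = 0.00112), and Slc6a19, 12.7 Mb away on the other side (log2 fold change 1.08, edgeR adjusted p = 3.51e-06).

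Levels per exonic kilobase scale the counts by gene length. On this scale Ctsw and Ctsd were the most abundant of the 10 genes in both groups, and Ctla2b the least. The lengths cover the exons of all annotated transcripts, and the order of some genes depends on them. By CPM, Ctsb and Ctsc averaged 144 and 133 in Ndrg3 ctrl, above Ctss at 97.4, while per kilobase both lay below it. In Ndrg3 ctrl the levels were 189 ± 9.97 CPM per kilobase for Ctsw, 126 ± 11.4 for Ctsd and 71.8 ± 8.13 for Ctss (SD, n = 4), and these 3 did not overlap. Cst7, Ctsb and Ctsc followed at 25.8 ± 0.972, 23.7 ± 2.95 and 23 ± 2 CPM per kilobase (SD, n = 4). These 3 overlapped in Ndrg3 ctrl and their order is not resolved by the libraries. Cst3 stood below them at 15.8 ± 2.38 CPM per kilobase (SD, n = 4). Ctsl was far lower at 1.31 ± 0.231 CPM per kilobase, and Ctla2a and Ctla2b were at 0.753 ± 0.0639 and 0.171 ± 0.0216 CPM per kilobase (SD, n = 4 each). The 6 cathepsins together took 0.0966% to 0.113% of all counts in Ndrg3 ctrl and 0.095% to 0.107% in Ndrg3 TKO.

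**Figure D2:**
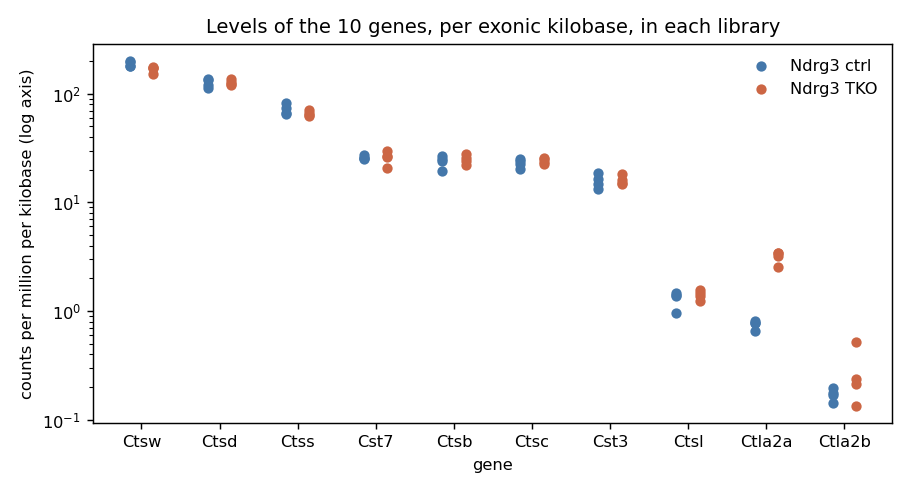
Levels of the 10 genes in each library, in TMM-scaled CPM per exonic kilobase on a log axis, ordered by the Ndrg3 ctrl mean. Ctsw is highest at 151 to 199 CPM per kilobase over all libraries, and on this scale Ctla2a lies below Ctsl in Ndrg3 ctrl and above it in Ndrg3 TKO.

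The level of Ctla2a was set against that of Ctsl, the protease its product is best known to inhibit. By CPM, Ctla2a was below Ctsl in all 8 libraries. Per kilobase, with exonic lengths of 2108 bases for Ctla2a and 6489 bases for Ctsl, the ratio of Ctla2a to Ctsl was 0.557, 0.518, 0.581 and 0.68 in Ndrg3 ctrl replicates 1 to 4. In Ndrg3 TKO replicates 1 to 4 it was 1.85, 2.19, 2.21 and 2.74. Per kilobase Ctla2a was thus below Ctsl in each Ndrg3 ctrl library and above it in each Ndrg3 TKO library, an order in Ndrg3 TKO that depends on these lengths, which cover the exons of all annotated transcripts. Against Ctsw, the most abundant of the cathepsins, Ctla2a stayed low, at 0.337% to 0.445% of its level per kilobase in Ndrg3 ctrl and 1.69% to 1.97% in Ndrg3 TKO. These are ratios of RNA levels, and protein was not measured in these libraries.

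Of the 10 genes, 9 passed the filter on low counts and 1, Ctla2a, passed the threshold of an adjusted p under 0.05 in edgeR's quasi-likelihood test, while 168 of all 14633 tested genes did (1.15%). Genes called higher in Ndrg3 TKO were 0.793% of those tested. The other 8 differed by less than 0.2 on the log2 scale. The libraries of the groups did not overlap for 2 of the 9, Ctla2a and Ctsw, and did not overlap for 7.04% of all tested genes. Because the comparison also chose the list, nothing is read from these counts.

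Ctsl, the cathepsin L that resembles the Ctla2 proteins in its pro-region, was at 9.09, 9.63, 8.97 and 6.29 CPM in Ndrg3 ctrl. In Ndrg3 TKO it was at 8.92, 9.58, 10.1 and 8.04 CPM. The groups overlapped, and the lowest value in each was that of replicate 4. The log2 fold change was 0.11 with a standard error of 0.132. Ctsl lies on chromosome 13 as well, at chr13:64359337-64370890. In the thymus cathepsin L is best known from epithelial cells of the cortex. Of 9 thymic epithelial markers 3 were tested, 0 passed in edgeR or DESeq2, and 0 had an unadjusted p under 0.05. They summed to 31.8 to 44 CPM in Ndrg3 ctrl and 38.3 to 46 CPM in Ndrg3 TKO, and the defining genes Foxn1, Psmb11, Krt8 and Krt14 had at most 3 counts in each library.

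Ctsw was lower in Ndrg3 TKO by a small margin. It was at 340, 376, 341 and 369 CPM in Ndrg3 ctrl and at 284, 324, 334 and 325 CPM in Ndrg3 TKO. Every Ndrg3 TKO library lay below every Ndrg3 ctrl library, although the gap between the highest of the one and the lowest of the other was small. The means were 356 ± 18.8 and 317 ± 22.2 CPM (SD, n = 4 each), a fall of 11.1%, with a log2 fold change of -0.17 (SE 0.0607). Ctsw did not pass the threshold of the fit across all genes. Ctsw (chr19:5465043-5468507) overlaps Fibp, a gene on the opposite strand with 6978 counts over all libraries, and the strand setting of the counting is not given in the sources used here.

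Ctsc, which activates granule proteases (chr7:88278085-88310888), was at 118 to 145 CPM in Ndrg3 ctrl and 131 to 148 CPM in Ndrg3 TKO (log2 fold change 0.08, SE 0.0647). Its inhibitor Cst7 (chr2:150570415-150578944) was at 24.4, 26.7, 25.3 and 25.3 CPM in Ndrg3 ctrl and at 20.6, 25.9, 29.2 and 26.3 CPM in Ndrg3 TKO. The means of Cst7 were 25.4 ± 0.958 and 25.5 ± 3.55 CPM (SD, n = 4 each), so the groups differed in spread more than in mean. The spread in Ndrg3 TKO was 13.9% of the mean, against 3.77% in Ndrg3 ctrl, where counting alone gives 3.84%.

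The other 4 genes overlapped between the groups. Ctsb, a broad cysteine protease of lysosomes (chr14:63122462-63145923), was at 119 to 161 CPM in Ndrg3 ctrl and 134 to 169 CPM in Ndrg3 TKO (log2 fold change 0.07, SE 0.0914). Ctsd, the lysosomal aspartic protease (chr7:142375911-142388038), was at 266 to 323 and 280 to 319 CPM (log2 fold change 0.01, SE 0.0663). Ctss, which trims the invariant chain in antigen-presenting cells (chr3:95526786-95556403), was at 87.6 to 111 and 85.1 to 96.4 CPM (log2 fold change -0.12, SE 0.073). Cst3, the secreted cystatin C (chr2:148871722-148875692), was at 16.8 to 23.8 and 18.9 to 23 CPM (log2 fold change 0.03, SE 0.103). Ctsb overlaps Fdft1 on the opposite strand, with 3578 counts over all libraries.

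**Figure D3:**
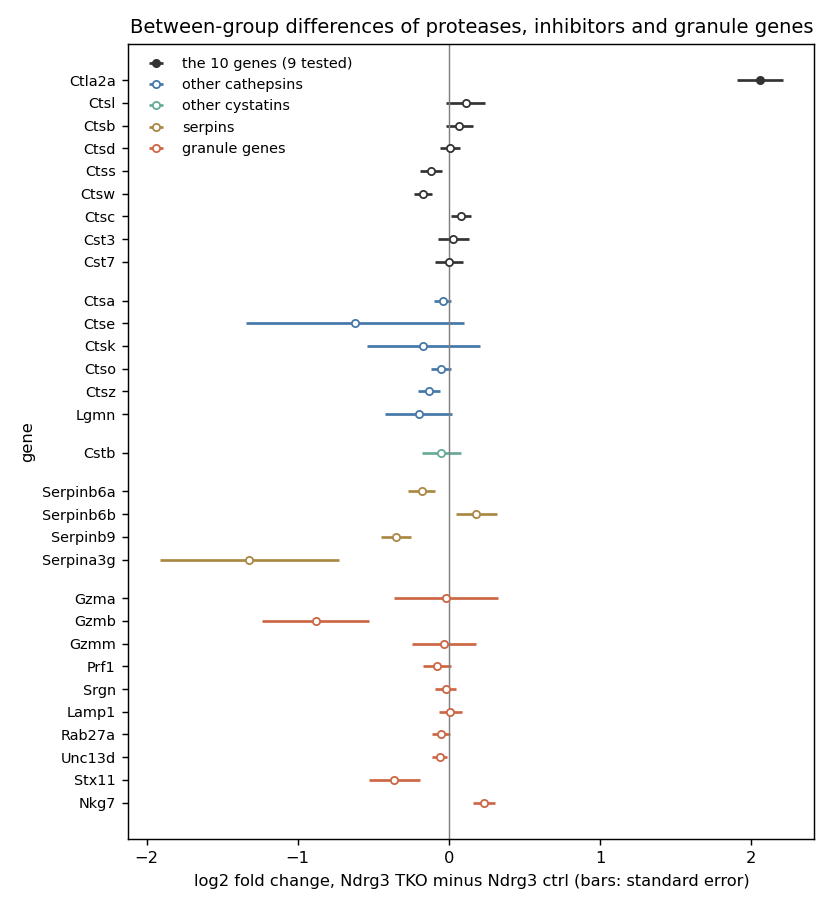
Log2 fold change between the groups (Ndrg3 TKO minus Ndrg3 ctrl) with its standard error, for the tested genes among the 10 and for tested genes of 4 related lists. Filled points passed the threshold in the edgeR test, and Ctla2a at 2.06 is the only filled point.

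The lysosomal genes varied together between libraries of the same group. In Ndrg3 ctrl, replicate 2 was the highest library and replicate 4 the lowest for all of Ctsl, Ctsb, Ctsd, Ctss, Ctsc and Cst3, 6 of 6 genes. In Ndrg3 TKO, replicate 4 was likewise the lowest for 6 of 6, and replicate 2 the highest for 5 of 6, with replicate 3 the highest for Ctsl. Of 66 tested lysosome genes other than cathepsins, 35 were highest in Ndrg3 ctrl replicate 2 and 37 lowest in Ndrg3 ctrl replicate 4, and 36 were lowest in Ndrg3 TKO replicate 4. Over all 14633 tested genes, 4387 were highest in Ndrg3 ctrl replicate 2, 3553 lowest in Ndrg3 ctrl replicate 4 and 3731 lowest in Ndrg3 TKO replicate 4. The genes share their libraries, so these counts describe 8 libraries and were not tested. The levels also carry the TMM scaling, in which a larger factor lowers every CPM of a library. Its factor was lowest in replicate 2 of both groups, at 0.9642 in Ndrg3 ctrl and 0.9759 in Ndrg3 TKO. In replicate 4 it was highest, at 1.029 and 1.021. The part of this scaling in the order of the libraries was not tested.

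Other measures moved with the same libraries. The summed level of the 66 lysosome genes was 5625, 5808, 5285 and 5048 CPM in Ndrg3 ctrl replicates 1 to 4 and 5368, 5716, 5595 and 5154 CPM in Ndrg3 TKO. The share of counts from mitochondrial genes was lowest in replicate 4 of both groups, at 0.636% and 0.571%, against 0.682% to 0.82% in the other 6 libraries. The 25 macrophage and dendritic cell markers summed to 54.1 to 67.9 CPM in Ndrg3 ctrl and 48.2 to 59.2 CPM in Ndrg3 TKO. This sum was also lowest in replicate 4 of both groups. Most of it came from H2-DMa and Cd74, at means of 35.5 and 16.1 CPM in Ndrg3 ctrl and 32.7 and 12.9 CPM in Ndrg3 TKO. Cd68 went the other way and was highest in replicate 4 of both groups, at 4.94 and 4.3 CPM. Of the 25 markers 11 were tested, 0 passed in edgeR or in DESeq2, and 3 had an unadjusted p under 0.05 in edgeR. C1qa, Mertk, Xcr1, Siglech and Sirpa had at most 3 counts in each library. The part of the markers in the levels of the cathepsins was not tested.

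**Figure D4:**
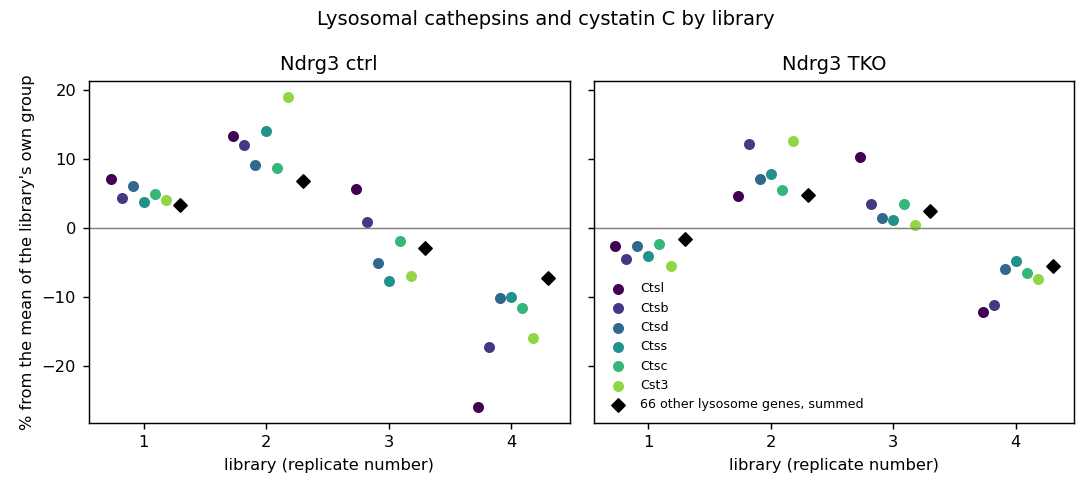
Levels of 6 lysosomal genes and the sum of 66 other lysosome genes in each library, as the percentage by which each lies above or below the mean of its own group. All 6 genes are lowest in replicate 4 of both groups, and all 6 are highest in replicate 2 of Ndrg3 ctrl.

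Most other cathepsins were not detected, and none of those tested passed the threshold. The list of 18 further genes held other cathepsins and also legumain (Lgmn), which is not a cathepsin. Of the 18, 10 were listed at 0 in every library and 6 were tested, Lgmn among them. In the edgeR test 0 of the 6 passed, 0 had an unadjusted p under 0.05 and DESeq2 called 0. The log2 fold changes of the 6 ran from -0.62 to -0.04 with a median of -0.15, against -0.00 for all tested genes. Ctsa, the carboxypeptidase that protects lysosomal sialidase and galactosidase, was the most abundant at 145 ± 7.16 CPM in Ndrg3 ctrl and 142 ± 8.2 CPM in Ndrg3 TKO (SD, n = 4 each). Ctso was at 50.5 ± 3.16 and 48.7 ± 3.76 CPM (SD, n = 4 each).

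Ctse, the endosomal aspartic protease cathepsin E, fell into separate levels that did not follow the genotype. It was at 43.2, 158, 141 and 35.8 CPM in Ndrg3 ctrl replicates 1 to 4. In Ndrg3 TKO replicates 1 to 4 it was at 38.6, 38.7, 132 and 36.2 CPM. Thus 3 libraries, Ndrg3 ctrl replicates 2 and 3 and Ndrg3 TKO replicate 3, lay between 132 and 158 CPM, and the other 5 between 35.8 and 43.2 CPM. Y-linked counts did not separate them, since Ndrg3 ctrl replicate 3 lacked these counts and Ndrg3 TKO replicate 2 had them. The log2 fold change was -0.62 with a standard error of 0.72 (edgeR adjusted p = 0.82).

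Inhibitors other than Ctla2a showed no called difference. The table held 17 other cystatins, of which 14 were listed at 0 throughout and 1 was tested, the intracellular inhibitor Cstb, at 11.5 ± 1.36 CPM in Ndrg3 ctrl and 11.1 ± 1.92 CPM in Ndrg3 TKO (SD, n = 4 each; edgeR adjusted p = 0.927). The next in level, Cst6 and Ahsg, were below 0.4 CPM in every library and were not tested. Of 27 serpin genes, named Serpinb or Serpina3, 4 were tested. In the edgeR test 0 passed, 2 had an unadjusted p under 0.05, and DESeq2 called 0. Serpinb9, the granzyme B inhibitor, was at 15.5 ± 1.77 CPM in Ndrg3 ctrl and 12.1 ± 1.06 CPM in Ndrg3 TKO (log2 fold change -0.35, SE 0.102, edgeR adjusted p = 0.146). Serpina3g, the other serpin with an unadjusted p under 0.05, had the largest log2 fold change of the 4, -1.32 (SE 0.594, edgeR adjusted p = 0.445). It had few counts, 5 to 20 per library in Ndrg3 ctrl and 0 to 10 in Ndrg3 TKO, and the groups overlapped. Serpinb6a and Serpinb6b had log2 fold changes of -0.18 (SE 0.0907) and 0.18 (SE 0.135).

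Substrates of Ctsc and genes of granules held no called difference. Of 20 such genes 10 were tested, and in the edgeR test 0 passed, 2 had an unadjusted p under 0.05 and DESeq2 called 0. Elane, Prtn3, Mpo and Cma1, which are not genes of cytotoxic granules, were among those not tested. The median log2 fold change of the 10 tested genes was -0.04. Nkg7, a granule membrane protein, was the most abundant at 233 ± 18.1 CPM in Ndrg3 ctrl and 273 ± 26.4 CPM in Ndrg3 TKO (log2 fold change 0.23, SE 0.0723, edgeR adjusted p = 0.203). Unc13d, which primes granules for release, was at 217 ± 10.2 and 208 ± 6.75 CPM, and Lamp1 at 116 ± 10.5 and 117 ± 10.4 CPM (SD, n = 4 each). The granzyme Gzmb was below 1 CPM in every library, at 0.549 to 0.934 CPM in Ndrg3 ctrl and 0.199 to 0.534 CPM in Ndrg3 TKO (edgeR adjusted p = 0.372), and Gzma and Gzmm, further granzymes, were at no more than 0.54 and 3.02 CPM in any library.

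The lysosome genes as a list moved to neither side. Of 67 lysosome genes other than cathepsins 66 were tested, 33 with a positive and 33 with a negative log2 fold change, and the median was 0.00 against -0.00 for all tested genes. The edgeR test called 1 of them lower and 0 higher, DESeq2 called 1, and 5 had an unadjusted p under 0.05. The gene that fell was Arsb, the lysosomal arylsulfatase B that breaks down dermatan sulfate, which also lies on chromosome 13. Arsb was at 27, 28.7, 24.5 and 23.7 CPM in Ndrg3 ctrl and at 15.1, 17.9, 17 and 18.8 CPM in Ndrg3 TKO, with no overlap (log2 fold change -0.59, SE 0.0868, edgeR adjusted p = 0.00275). The most abundant genes of the list were Laptm5, at 1321 ± 85.8 and 1374 ± 69.3 CPM, Psap, at 403 ± 49.2 and 389 ± 36.4 CPM, and Npc2, at 291 ± 21.4 and 302 ± 17.2 CPM (SD, n = 4 each). Tfeb, the transcription factor that drives lysosomal genes through CACGTG sites, was at 27.8 ± 0.46 and 29.5 ± 1.57 CPM (SD, n = 4 each; edgeR adjusted p = 0.675).

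The genes whose pattern over the 8 libraries was most like that of Ctla2a, by Pearson correlation of log2 CPM, were Tcrg-C4 (r = 0.991), Arhgap5 (r = 0.990), Tcrg-C2 (r = 0.986), Ahr (r = 0.984) and Snx15 (r = 0.984). The libraries form separate clusters by genotype for these genes, so the coefficients mainly describe that split and were not tested. Tcrg-C4 and Tcrg-C2, constant segments of the T cell receptor gamma locus, were at 1.37 and 0.978 CPM on average in Ndrg3 ctrl and at 12.2 and 31 CPM in Ndrg3 TKO. Ahr, the aryl hydrocarbon receptor, was at 17.1 and 42.5 CPM. Arhgap5 was at 13.3 and 18.7 CPM, and the sorting nexin Snx15 at 12.5 and 17.5 CPM.

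Single genes among the markers of other lymphocytes differed between the groups beside Ctla2a. Of 8 natural killer cell markers 2 were tested and 1 was called, Klrb1c, at 0.11 to 0.639 CPM in Ndrg3 ctrl and 1.48 to 2.04 CPM in Ndrg3 TKO (edgeR adjusted p = 0.00149). The 8 markers summed to 1.04 to 2.31 CPM in Ndrg3 ctrl and 2.42 to 3.19 CPM in Ndrg3 TKO, with Ncr1, Klra8 and Klra4 at 0 in every library. Without Klrb1c the other 7 summed to 0.771 to 1.67 CPM and 0.902 to 1.23 CPM, which overlap. Of 12 genes of innate or virtual memory CD8 T cells 9 were tested and 3 fell, Eomes, Cxcr3 and Ccl5, with log2 fold changes of -1.26, -1.55 and -2.39 (edgeR adjusted p = 0.00017, 0.00356 and 0.000603). In this list 5 had an unadjusted p under 0.05 in edgeR, and DESeq2 called 4. The further genes under 0.05 were Ly6c2 and Klrd1, with log2 fold changes of -0.73 and 0.31 (edgeR adjusted p = 0.0632 and 0.32). All 12 genes together summed to 635 to 763 CPM in Ndrg3 ctrl and 606 to 722 CPM in Ndrg3 TKO. Il2rb and Il4ra, at means of 332 and 245 CPM in Ndrg3 ctrl, made up most of that sum. Of 6 B cell markers 2 were tested and 0 passed in edgeR, with 1 at an unadjusted p under 0.05 and 1 called by DESeq2 (Cd79b in both cases), and their sum was 252 to 301 CPM in Ndrg3 ctrl and 261 to 312 CPM in Ndrg3 TKO. Of 10 markers of CD4 T cells and immature thymocytes 7 were tested and 0 passed in edgeR, with 1 at an unadjusted p under 0.05 and 1 called by DESeq2 (Dntt in both cases), and their sum was 54 to 65 CPM and 52.3 to 61.3 CPM. The part of these markers in the level of Ctla2a was not tested, and in bulk RNA a change in the number of cells of a type and a change in RNA per cell cannot be told apart.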

How the data were processed

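RNA-seq of 8 CD8SP libraries was used, 4 per group, grouped by the genotype in the labels. The libraries came from a stranded total RNA kit. The authors ran cutadapt, STAR (GRCm38.p4, release M9) and featureCounts, and the raw counts per gene are as they deposited them. Symbols, positions and exonic lengths came from GENCODE M21, matched by Ensembl identifier for 98.7% of 47937 rows.

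Low genes were removed by filterByExpr, libraries were TMM-scaled, and groups were compared with edgeR 4.0.16 in R 4.3.3 (glmQLFit robust, glmQLFTest), with Benjamini-Hochberg adjustment over 14633 genes and a threshold of 0.05. DESeq2 1.42.0 was an alternative, with other scalings, filters, a replicate block, Y-linked expression as a covariate and each library left out. The procedure was tested on simulated data. Replicates of a group differed beyond sampling noise, and p-values measure the spread between these samples. The 10 genes and the gene lists were chosen with earlier results of these data known. From each list, called genes and the 3 most abundant were named, with Gzmb, Tfeb and other single genes added after their values were seen.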

Additional observations from a re-analysis of the deposited data

Results flagged for a closer look

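In a group of 4 libraries, a library was singled out where its gap to the nearest of the others, divided by the range of the group, exceeded the critical value of Dixon's test. Over 58 groups 5 were singled out, where chance gives about 2.9. Ctse was at 132 CPM in Ndrg3 TKO replicate 3, against 36.2 to 38.7 CPM in the other 3 libraries. The cystatin Cst6 was at 0.334 CPM in the same library, against 0.0331 to 0.0628 CPM. Ahsg was at 0.0491 CPM in Ndrg3 ctrl replicate 2 and at 0 in the others, which is 1 count. The mitochondrial share was 0.636% in Ndrg3 ctrl replicate 4, against 0.803% to 0.82%. The sum of Y-linked genes was 353 CPM in replicate 2 of Ndrg3 ctrl and at most 0.0732 CPM in the other Ndrg3 ctrl libraries.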

How the results depend on the processing

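Ctla2a passed the threshold with the same direction in all 15 alternatives, with log2 fold changes of 2.00 to 2.15, and so did Arsb, at -0.64 to -0.54. All were fits of the same libraries, and Ctla2a was chosen by its difference in them, so its passing again is no independent support. The number of all called genes, 168, was 309 with DESeq2, 274 with no filter on low counts, 437 with Y-linked expression as a covariate and 90 to 158 when 1 library was left out. It fell by more than 1.5 times without Ndrg3 TKO replicate 1, 3 or 4, or Ndrg3 ctrl replicate 1, 3 or 4. With the replicate number as a replicate block, 800 genes were called. With it 2 of the 10 genes passed, Ctla2a and Ctsw, as did 1 of the other cathepsins, cystatins and serpins (Serpinb9), 3 lysosome genes (Arsb among them) and 1 granule gene (Nkg7). Same-numbered libraries correlated at 0.181, 0.415, -0.055 and 0.301 after the group means were removed, so the numbers were not taken to pair them, and each library of replicates 1, 2 and 4 but not 3 correlated best with its own number. The fold changes of Ctsl, Ctsb, Ctsd, Cst3 and Cst7 crossed 0 in some alternatives; that of Cst7 was 0.09 without Ndrg3 TKO replicate 1 and -0.07 without Ndrg3 TKO replicate 3. Ctla2b, where it could be fitted, was at 0.18 (without Ndrg3 TKO replicate 3) to 0.89 when 1 library was left out. No neighbour of the Ctla2 copies passed in any of the 15. Counts under 3 per library, 0.0921 to 0.147 CPM, cannot be told from 0.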
